A study of Mus musculus with 34 samples.

Results

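Pluripotent lines in culture were compared with embryonic fibroblasts in culture, so that both sides of the comparison consisted of cultured cells. The tested cells were mouse embryonic stem cells (ESC, 2 arrays, passages 9 to 14) and embryonic germ cells, a line grown out of E12.5 primordial germ cells (EGC, 3 arrays, passage 19). Both were male and were kept with serum and leukaemia inhibitory factor (LIF). The cells they were set against were E13.5 mouse embryonic fibroblasts of mixed sex at passage 2, kept with serum (MEF, 6 arrays). Every one of these cells was of the C57Bl/6 strain. The members were all ESC, EGC and MEF arrays of the series, 11 of the 32 arrays that remained after 2 of 34 deposited columns had proved to be means of others. A second comparison used germ cells of the E11.5 embryo, isolated by their Oct4/GFP fluorescence (4 arrays, PGC E11.5), and the reporter-negative cells of the same gonad and mesonephros (SGM, 4 arrays), both of mixed sex and taken fresh. For levels alone, 3 further sets were used. They were neurospheres of neural stem cells from 8-week mice of mixed sex (passage 1 with EGF, 2 arrays), haematopoietic stem cells sorted from bone marrow of 8-week males (2 arrays), and the inner cell mass of E3.5 blastocysts (3 arrays, mixed sex), whose strains were C57Bl/6 x C3H F1 and, on 1 array, that cross with CD1. The labels name no feeder layer for the lines. Passage number, LIF and sex all follow the groups and cannot be told apart from cell type.

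Embryonic stem cells keep their pluripotency through a network of transcription factors around Oct4 (gene Pou5f1), Sox2 and Nanog, which bind one another's genes. In mouse cells LIF, acting through STAT3, helps to keep this network active. Embryonic germ cells carry the same network but descend from germ cells, in which much DNA methylation is erased. Pluripotent mouse cells also divide with a short G1 phase, and grow as tight epithelial colonies. Fibroblasts are flat, contractile mesenchymal cells that secrete and crosslink collagen matrix and hold actin stress fibres, caveolae and inflammatory chemokine genes in readiness.

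Values are log2 units of signal for each gene, differences are log2 differences, and the error after a difference is its standard error in the limma fit. ESC and EGC means were weighted equally in the difference of the lines over MEF. For MEF the lowest, median and highest of the 6 arrays are given, in that order. A difference was called when its p, adjusted over 8251 genes, was under 0.05. Arrays of a group were alike, with Pearson correlations over genes of 0.9938 for ESC, 0.9929 to 0.9946 for EGC and 0.9895 to 0.9963 for MEF. ESC and EGC arrays correlated at 0.9464 to 0.9562. Correlation with MEF arrays was 0.8184 to 0.833 for ESC and 0.8553 to 0.871 for EGC. The 3′ over 5′ actin difference, a measure of RNA length after amplification, was 1.37 and 1.748 in ESC and 1.721 to 1.988 in EGC. It was 0.155 to 0.795 in MEF, without overlap. The same measure for Gapdh was 2.461 and 2.845 in ESC and 3.066 to 3.235 in EGC. It was 2.167 to 3.113 in MEF, with overlap. The part of RNA length in any difference below was not tested, and the actin difference cannot be told apart from cell type. MEF arrays also reached higher values, with maxima of 14.201 and 14.207 in ESC and 14.345 to 14.558 in EGC, against 17.258 to 17.715 in MEF. The folds of bright MEF genes are therefore given also after the arrays were set to equal distributions (quantile scaling). A gene with several probe sets is given by its brightest. Calls that were lost under at least 1 alternative setting or array left out are named as weak.

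The lines and the fibroblasts differed in most genes measured. Of 8251 genes, 5409 were called (65.6%), 2947 higher in the lines (35.7%) and 2462 lower (29.8%), and the median difference over all genes was 0.048. At 2-fold or more, 844 genes were higher (10.2%) and 977 were lower (11.8%). For 1820 genes (22.1%) all 5 line arrays stood above all 6 MEF arrays, and for 1687 genes (20.4%) all stood below. Each line alone gave similar numbers, 5183 called in ESC over MEF (62.8%) and 5014 called in EGC over MEF (60.8%). These last comparisons share the MEF arrays. Genes called higher in each line and without overlap numbered 1663 (20.2%), and those called lower in the same way 1570 (19.0%). The largest differences among them are described next.

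Genes of the pluripotent state were at the head of the rises. Dppa5a, which encodes an RNA-binding protein of pluripotent and germ cells, had 13.32 and 13.47 in ESC and 13.07, 12.93 and 13.34 in EGC, against 5.12, 5.38 and 5.59 in MEF. The transcription factor gene Sox2 had 11.81 and 11.82 in ESC and 11.85, 11.55 and 11.9996 in EGC, against 4.10, 4.42 and 4.55 in MEF. Dppa2, a chromatin-bound partner of Dppa4, had 10.52 and 10.45 in ESC and 11.96, 12.16 and 12.36 in EGC, against 5.07, 5.18 and 5.29 in MEF. In these 3 genes every line array was far above every MEF array, by 237-fold for Dppa5a (difference 7.89 ± 0.12, adjusted p = 5.27e-28), 171-fold for Sox2 (difference 7.41 ± 0.11, adjusted p = 5.67e-28) and 70.5-fold for Dppa2 (difference 6.14 ± 0.11, adjusted p = 1.23e-25). Pou5f1 had 10.89 and 10.37 in ESC and 10.23, 10.08 and 10.15 in EGC, against 4.32, 4.40 and 4.99 in MEF. Nanog had 12.22 and 12.08 in ESC and 11.94, 11.74 and 12.05 in EGC, against 6.75, 6.93 and 7.37 in MEF. Fbxo15, a target gene of Oct4 and Sox2 that encodes an F-box protein, had 10.53 and 10.76 in ESC and 10.08, 10.01 and 10.33 in EGC, against 5.12, 5.37 and 5.84 in MEF. The groups again lay apart, by 59.9-fold for Pou5f1 (difference 5.90 ± 0.15, adjusted p = 1.61e-22), 33.1-fold for Nanog (difference 5.05 ± 0.16, adjusted p = 8.87e-21) and 31.1-fold for Fbxo15 (difference 4.96 ± 0.18, adjusted p = 3.5e-19). Pou5f1 and Nanog each had a second, dimmer probe set with a smaller difference, 0.10 and 1.73.

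The other 6 of the 12 largest rises were not of the core network. Trap1a, an X-linked tumour rejection antigen gene, had 12.17 and 12.24 in ESC and 11.60, 11.78 and 11.83 in EGC, against 5.67, 6.03 and 6.21 in MEF. Epcam, which encodes an epithelial adhesion molecule, had 8.34 and 8.26 in ESC and 9.08, 9.44 and 9.87 in EGC, against 3.46, 3.63 and 3.75 in MEF. Mycn, the N-Myc gene, had 11.34 and 11.34 in ESC and 12.11, 12.28 and 12.42 in EGC, against 6.75, 6.87 and 7.02 in MEF. Line arrays exceeded all MEF arrays in each, by 64.3-fold for Trap1a (difference 6.01 ± 0.19, adjusted p = 1.4e-20), 38.02-fold for Epcam (difference 5.25 ± 0.22, adjusted p = 5.76e-18) and 30.2-fold for Mycn (difference 4.92 ± 0.13, adjusted p = 4.63e-22). The X-linked Bex1, brain expressed X-linked 1, had 10.03 and 9.77 in ESC and 11.30, 11.49 and 11.42 in EGC, against 5.62, 5.90 and 6.64 in MEF. The KRAB zinc finger gene Zfp982 had 9.79 and 9.89 in ESC and 9.33, 9.49 and 10.02 in EGC, against 4.45, 5.07 and 5.45 in MEF. Neither overlapped between lines and MEF, and the differences were 26.1-fold for Bex1 (difference 4.71 ± 0.15, adjusted p = 1.65e-20) and 26.02-fold for Zfp982 (difference 4.70 ± 0.20, adjusted p = 1.16e-17). Mtm1, the X-linked gene of the lipid phosphatase myotubularin, had 11.80 and 11.83 in ESC and 11.43, 11.58 and 11.90 in EGC, against 5.72, 6.11 and 6.25 in MEF, a difference of 50.9-fold (log2 5.67 ± 0.18, adjusted p = 1.77e-20). Its probe sets were called in opposite directions, so its direction is uncertain. Of the 12 genes, Trap1a, Bex1 and Mtm1 lie on the X chromosome, and the lines were male while MEF were of mixed sex. A second Mycn probe set differed by -0.23.

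Matrix, chemokine and cytoskeletal genes of fibroblasts led the falls. Prss23, which encodes a secreted serine protease, had 7.51 and 7.998 in ESC and 9.82, 10.13 and 10.09 in EGC, against 14.82, 15.23 and 15.68 in MEF. Col5a2, a fibrillar collagen chain, had 10.10 and 10.41 in ESC and 11.08, 11.61 and 11.17 in EGC, against 16.43, 16.75 and 16.79 in MEF. Col1a2, a chain of type I collagen, had 10.27 and 10.30 in ESC and 10.89, 10.95 and 10.90 in EGC, against 15.96, 16.12 and 16.17 in MEF. All line arrays lay below all MEF arrays, 83.98-fold for Prss23 (difference -6.39 ± 0.20, adjusted p = 1.31e-20), 61.1-fold for Col5a2 (difference -5.93 ± 0.13, adjusted p = 6.04e-24) and 45.1-fold for Col1a2 (difference -5.49 ± 0.10, adjusted p = 1.37e-25). Under quantile scaling the falls were smaller, 28.7-fold for Prss23, 14.1-fold for Col5a2 and 11.54-fold for Col1a2, and Col1a2 had a second probe set with a difference of -0.03. Col5a2 and Fbln2 exceeded 16, which a 16-bit scanner cannot record, on all 6 MEF arrays. In all, 13 probe sets did so on MEF arrays and none on arrays of other groups.

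The elastic fibre gene Fbln2 had 10.33 and 10.52 in ESC and 11.20, 11.12 and 11.34 in EGC, against 16.01, 16.32 and 16.34 in MEF. Lox, the enzyme that crosslinks collagen and elastin, had 7.97 and 8.05 in ESC and 8.21, 8.49 and 8.07 in EGC, against 13.69, 13.84 and 13.98 in MEF. Postn, the matrix protein periostin, had 6.30 and 7.02 in ESC and 6.66, 6.9997 and 6.82 in EGC, against 12.18, 12.39 and 12.52 in MEF. Mgp, the matrix Gla protein that inhibits mineralization, had 8.02 and 8.08 in ESC and 8.27, 8.65 and 8.43 in EGC, against 13.92, 13.97 and 14.23 in MEF. These 4 matrix genes did not overlap between the lines and MEF, and fell by 43.3-fold for Fbln2 (10.7-fold under quantile scaling), 52.3-fold for Lox (27.8-fold), 48.9-fold for Postn (34.8-fold) and 54.1-fold for Mgp (27.4-fold). Their differences were -5.44 ± 0.10, -5.71 ± 0.082, -5.61 ± 0.13 and -5.76 ± 0.13 in that order, with adjusted p = 1.61e-25, 5.27e-28, 2.78e-23 and 5.4e-24. A second Lox probe set had a difference of -1.46.

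Receptor, chemokine and actin-binding genes completed the 12 largest falls. Osmr, the oncostatin M receptor subunit, had 7.78 and 7.99 in ESC and 8.33, 8.08 and 7.94 in EGC, against 13.54, 13.89 and 14.17 in MEF. Ccl7, a monocyte chemokine, had 7.53 and 7.79 in ESC and 8.09, 8.14 and 8.01 in EGC, against 13.13, 13.78 and 14.18 in MEF. Nrp1, a co-receptor for semaphorins and VEGF, had 7.04 and 7.20 in ESC and 8.10, 8.32 and 7.84 in EGC, against 12.42, 12.69 and 13.14 in MEF. The lines stood below MEF on every array, by 58.5-fold for Osmr (difference -5.87 ± 0.11, adjusted p = 6.78e-26; 30.8-fold under quantile scaling), 57.96-fold for Ccl7 (difference -5.86 ± 0.14, adjusted p = 1.18e-23; 31.7-fold) and 35.8-fold for Nrp1 (difference -5.16 ± 0.17, adjusted p = 2.5e-20; 23.6-fold). Gsn, the actin-severing protein gelsolin, had 7.81 and 7.86 in ESC and 8.44, 8.32 and 8.74 in EGC, against 13.66, 13.75 and 13.86 in MEF. Synpo, an actin-associated protein, had 6.31 and 6.55 in ESC and 6.95, 7.19 and 7.19 in EGC, against 11.59, 12.23 and 12.37 in MEF. Neither overlapped, and the falls were 47.7-fold for Gsn (26.2-fold) and 41.1-fold for Synpo (29.9-fold). In bulk RNA of a culture, fewer cells that express a gene and less RNA per cell cannot be told apart.

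**Figure D1:**
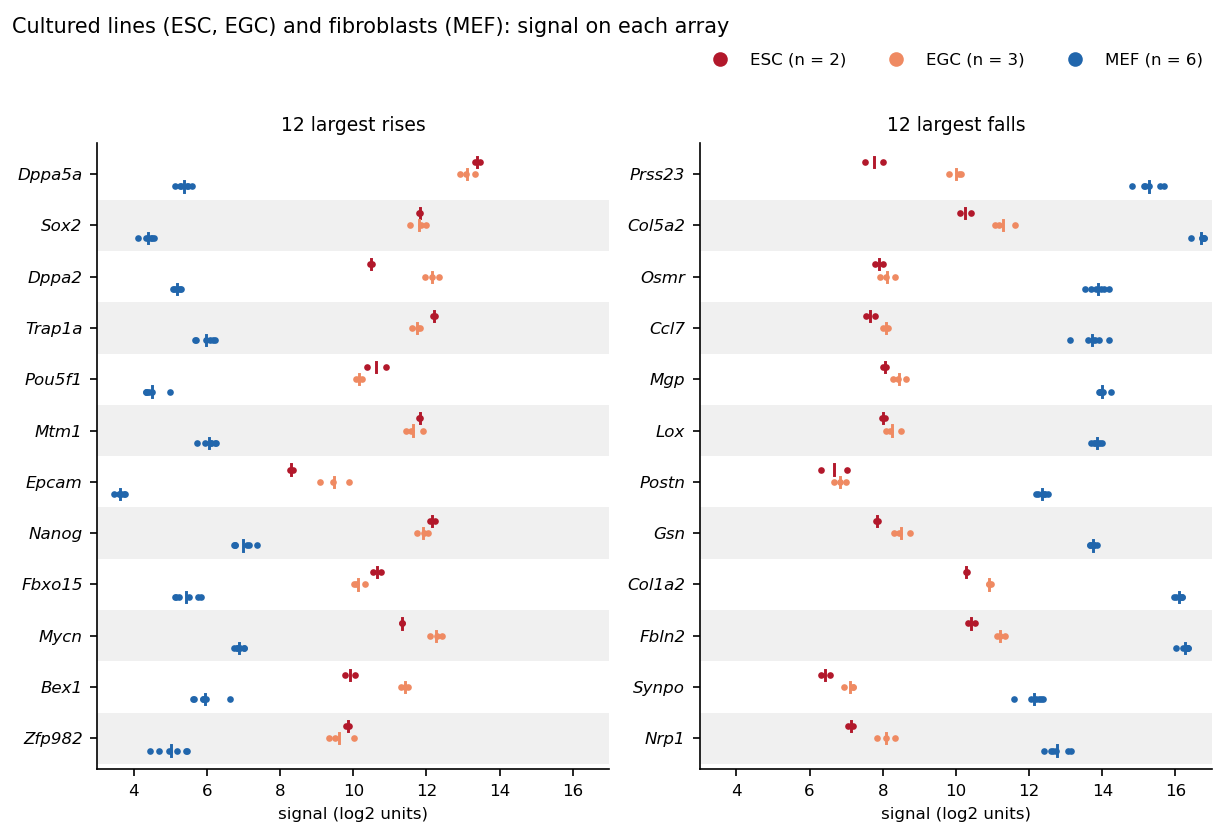
Signal in log2 units (horizontal axis) of the 12 largest rises and the 12 largest falls in the lines over MEF, with 1 point per array for ESC (2), EGC (3) and MEF (6) and a tick at each group mean. No line array overlaps an MEF array in any of the 24 genes.

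Sets of cells outside the culture comparison placed these genes differently. Across the 12 rises the median of group means was 10.991 in ESC, 11.686 in EGC and 10.827 in PGC E11.5, against 5.4 in MEF. Sox2 was also high in neural stem cells, at 12.01, so a somatic group shared its high level. Across the 12 falls the median of group means was 7.861 in ESC and 8.352 in EGC, against 13.857 in MEF. It was lower still in neural stem cells, 6.111, and haematopoietic stem cells, 6.176, and in 11 of the 12 genes every haematopoietic array lay below every line array. The SGM cells of the embryo, with 10.416, stood between.

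The pluripotency list as a whole held 42 genes, of which 32 were measured. Of these, 29 were called higher in the lines (35.7% of all genes) and 1 lower (29.8%), and 27 had no line array as low as any MEF array. The median difference was 2.46, 2.62 in ESC alone and 2.59 in EGC alone, against 0.048 over all genes. Lin28a, Dnmt3l, Rif1, L1td1, Tdh, Eras, Zscan10, Prdm14 and Otx2 were among those not measured. Many of the genes were in the list because they are known to be high in such cells, so their direction checks the labels.

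Nodal pathway members of the pluripotency list were Tdgf1, Nodal and Lefty1. Tdgf1, the Nodal co-receptor Cripto, had 8.95 and 8.80 in ESC and 9.47, 9.65 and 10.68 in EGC, against 5.19, 5.40 and 5.58 in MEF. Nodal itself, a TGF-beta family ligand, had 8.91 and 8.97 in ESC and 9.70, 9.98 and 10.23 in EGC, against 5.61, 5.73 and 6.07 in MEF. Its feedback inhibitor Lefty1 had 10.15 and 9.90 in ESC and 12.07, 11.51 and 11.90 in EGC, against 8.64, 8.77 and 8.86 in MEF. All 3 lay wholly above MEF, with differences of 4.02 ± 0.18, 3.67 ± 0.13 and 2.17 ± 0.10. All 3 were also lower in ESC than in EGC, by -1.06 ± 0.27 for Tdgf1 (adjusted p = 0.00332), -1.03 ± 0.20 for Nodal (adjusted p = 0.000197) and -1.80 ± 0.15 for Lefty1 (adjusted p = 1.2e-09). The related ligand gene Gdf3 rose by 3.27 ± 0.16, with no call between the lines. Second probe sets of Lefty1 and Gdf3 differed by 0.87 and 0.20.

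Markers of naive pluripotency were uneven. Zfp42, also called Rex1, had 9.72 and 9.85 in ESC and 8.60, 8.24 and 8.91 in EGC, against 4.89, 5.19 and 5.47 in MEF. Tfcp2l1, a LIF-responsive transcription factor gene, had 11.49 and 11.54 in ESC and 10.25, 10.25 and 10.67 in EGC, against 7.61, 8.07 and 8.25 in MEF. Both were above MEF on every array, by 3.98 ± 0.17 and 2.93 ± 0.13, and higher in ESC than in EGC by 1.20 ± 0.25 and 1.13 ± 0.19. Klf4, a reprogramming factor that fibroblasts also express, had 11.17 and 11.26 in ESC and 10.86, 10.52 and 11.14 in EGC, against 11.82, 12.08 and 12.22 in MEF, and was the 1 member that fell (-1.02 ± 0.21, adjusted p = 0.000115). Klf5 rose by 1.29 ± 0.17 and Klf2 by 0.87 ± 0.14. Esrrb, a nuclear receptor of the naive network, had 6.83 and 6.49 in ESC and 6.77, 6.53 and 6.65 in EGC, against 6.38, 6.62 and 6.80 in MEF, and Tbx3, a T-box factor, had 6.50 and 6.23 in ESC and 6.31, 6.52 and 6.47 in EGC, against 6.19, 6.39 and 6.62 in MEF. The groups overlapped in both, with differences of 0.082 ± 0.09 (adjusted p = 0.433) and 0.0025 ± 0.11 (adjusted p = 0.985). The table gives no detection calls, so whether these probe sets measured their genes above background is not known. A second Tfcp2l1 probe set differed by 0.31.

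The other members rose by smaller amounts. Dppa4 differed by 3.91, Sall4, a zinc finger factor upstream of Pou5f1, by 3.40, and Dppa3, also known as Stella, by 3.30. The chromatin genes Phc1, Trim28 and Jarid2 differed by 3.07, 2.55 and 2.29. Mybl2, Nr0b1, Gbx2, Fgf4, Tcl1, Utf1 and Nr5a2 lay between 1.48 and 2.37. Rex2 and Foxd3 were called higher by 0.97 and 0.25 with overlapping arrays, the second a weak call. Second probe sets of Mybl2 and Nr0b1 differed by 0.94 and -0.105.

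**Figure D2:**
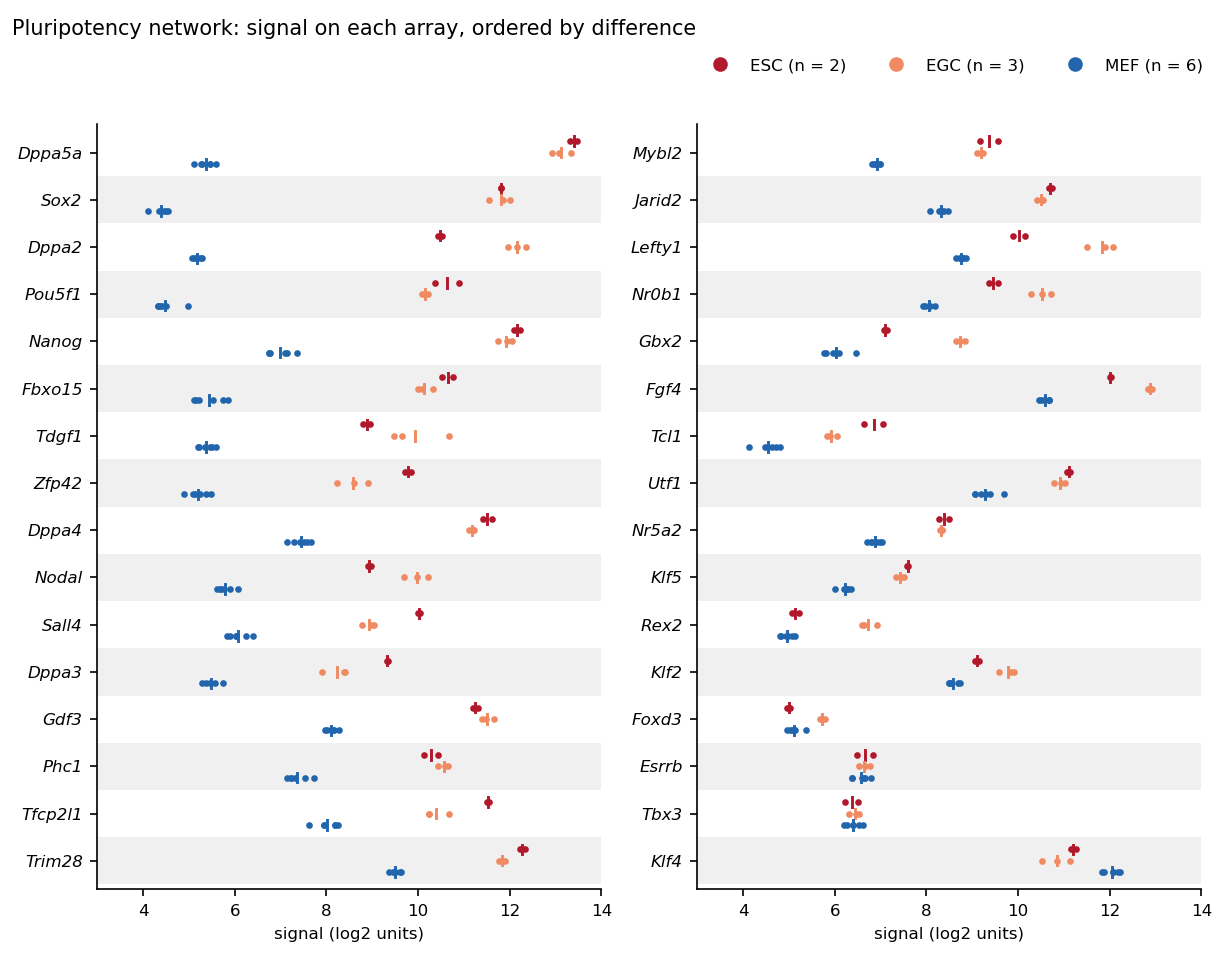
Signal in log2 units (horizontal axis) of the 32 measured pluripotency genes, ordered by their difference in the lines over MEF, with 1 point per ESC, EGC and MEF array. Dppa5a and Sox2 are at one end, and Tbx3, Esrrb and Klf4 at the other.

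Promoters were read for motifs that a family of regulators is known to bind, in the 250 bases before each gene's start (RefSeq, assembly GRCm38.p6), and sequences are written 5′ to 3′ on the gene's own strand. Of 27025 mouse genes with a window, 1 gene (0.0037%) held the octamer letters TTTGCAT, then any base and the Sox letters ACAATG, on either strand. That gene was Nanog, 1 of 22 pluripotency genes with a window (4.55%). Only this long form was sought and variants of it were not, so these shares are a description and not a test. The window, chr6:122707315-122707564 on the plus strand, is shown because Nanog is among the largest rises, with the element in capitals.
Nanog: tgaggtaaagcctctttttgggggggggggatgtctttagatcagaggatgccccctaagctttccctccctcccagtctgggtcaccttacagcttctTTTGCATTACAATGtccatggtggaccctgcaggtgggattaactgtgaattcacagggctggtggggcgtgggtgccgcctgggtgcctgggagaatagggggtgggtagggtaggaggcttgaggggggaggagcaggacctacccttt
A match of letters is a description and not evidence of binding, here and for the promoters further on. Motifs were paired with lists by what is known of their regulators, so the shares of genes with a motif are not tests.

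DNA replication genes rose nearly as a body. Of 39 measured, 36 were called higher and 1 lower, with a median of 1.995. Mcm5, a subunit of the replicative helicase, had 11.31 and 11.13 in ESC and 11.02, 10.91 and 10.79 in EGC, against 7.14, 7.20 and 7.68 in MEF. Rfc5, a clamp loader subunit, had 11.23 and 11.18 in ESC and 10.86, 10.80 and 10.86 in EGC, against 7.13, 7.27 and 7.32 in MEF. Gmnn, geminin, which restrains relicensing of origins, had 9.25 and 9.33 in ESC and 8.78, 8.52 and 9.02 in EGC, against 5.05, 5.53 and 6.13 in MEF. The arrays did not overlap, and the differences were 3.79 ± 0.14, 3.77 ± 0.11 and 3.48 ± 0.16. Mcm3 rose by 3.43 ± 0.13, Cdc6, which loads the helicase, by 3.37 ± 0.13, and Prim1, a primase subunit, by 3.35 ± 0.18. Mcm6 was the exception, a weak call with a difference of -0.26 ± 0.094 (adjusted p = 0.0166), while Pola2 and Dbf4 were not called. A second Mcm5 probe set differed by -0.12. A second Rfc5 probe set differed by 0.16 and one of Pola2 by 1.44.

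E2F factors drive replication genes from a site in their promoters. The forms TTTCCCGC, TTTCGCGC, TTTGCCGC and TTTGGCGC were sought on both strands, and at least 1 of them stood in 7 of 34 replication genes with a window (20.6%), against 2.16% of all genes. Of the 7, Mcm5, Cdc6, Mcm7 (2.96), Pola1 (2.79), Orc1 (1.77) and Rfc3 (1.401) rose, the last 4 named after their values were seen, and Mcm6, with 3 matches, was the member called lower. Mcm5 and Cdc6 are shown because they had the largest differences of the 7, and both lie on the plus strand. They lie at chr8:75109259-75109508 and chr11:98907901-98908150, with the matches in capitals.
Mcm5: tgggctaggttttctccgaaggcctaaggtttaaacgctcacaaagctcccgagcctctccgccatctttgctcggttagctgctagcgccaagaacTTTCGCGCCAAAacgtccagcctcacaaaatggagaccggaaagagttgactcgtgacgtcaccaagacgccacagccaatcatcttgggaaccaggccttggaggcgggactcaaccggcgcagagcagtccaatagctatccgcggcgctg
Cdc6: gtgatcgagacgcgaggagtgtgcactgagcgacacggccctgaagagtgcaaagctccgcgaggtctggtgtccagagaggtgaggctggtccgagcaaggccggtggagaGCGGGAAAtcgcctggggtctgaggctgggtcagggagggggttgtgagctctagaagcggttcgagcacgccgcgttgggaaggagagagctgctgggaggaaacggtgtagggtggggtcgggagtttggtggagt
The capitals of Mcm5 cover 2 matches that overlap on opposite strands.

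Mitosis genes did likewise. Of 35 measured, 34 were called higher and 0 lower, with a median of 2.30. Ect2, which drives the cleavage furrow, had 11.34 and 11.22 in ESC and 11.55, 11.38 and 11.62 in EGC, against 7.41, 7.57 and 7.91 in MEF. Top2a, the DNA topoisomerase of chromosome condensation, had 10.21 and 10.23 in ESC and 8.92, 8.79 and 9.19 in EGC, against 5.58, 5.76 and 5.995 in MEF. Tacc3, a spindle protein, had 8.70 and 8.95 in ESC and 7.99, 7.77 and 8.10 in EGC, against 4.51, 4.70 and 5.001 in MEF. No line array was as low as an MEF array, and the differences were 3.81 ± 0.17, 3.80 ± 0.13 and 3.66 ± 0.16. Ttk, a checkpoint kinase, rose by 3.62 ± 0.12, Mki67 by 3.58 ± 0.28 and Aurka by 3.42 ± 0.11. A second Mki67 probe set differed by 0.02. Cenpe, a kinetochore motor, was the 1 member not called, with 4.44 and 4.23 in ESC and 4.74, 4.38 and 4.43 in EGC, against 4.37, 4.47 and 4.63 in MEF.

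Genes of mitosis are known to carry a CCAAT box and a cell cycle homology region (CHR). CCAAT on either strand stood in 24 of 29 mitosis genes with a window (82.8%), against 37.5% of all genes. The CHR letters TTTGAA stood in 14 of the 29 (48.3%), against 18.3% of all genes. Cdc20, which activates the anaphase-promoting complex, and Kif11, a spindle motor, were taken as examples with both motifs after their values were known. The windows are at chr4:118437344-118437593 on the minus strand and chr19:37376132-37376381 on the plus strand, with the motifs in capitals.
Cdc20: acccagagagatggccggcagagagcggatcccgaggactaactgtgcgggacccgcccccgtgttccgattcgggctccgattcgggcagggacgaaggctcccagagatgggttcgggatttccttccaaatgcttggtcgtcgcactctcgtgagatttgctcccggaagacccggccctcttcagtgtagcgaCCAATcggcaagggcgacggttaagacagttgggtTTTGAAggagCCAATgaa
Kif11: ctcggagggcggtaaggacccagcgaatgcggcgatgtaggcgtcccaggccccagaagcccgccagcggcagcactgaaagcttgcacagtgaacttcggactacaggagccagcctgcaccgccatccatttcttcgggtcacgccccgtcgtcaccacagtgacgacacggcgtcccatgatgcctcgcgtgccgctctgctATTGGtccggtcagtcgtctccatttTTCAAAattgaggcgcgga
Cdc20 had 12.21 and 12.27 in ESC and 12.55, 12.53 and 12.55 in EGC, against 8.67, 9.08 and 9.18 in MEF. Kif11 had 9.41 and 9.14 in ESC and 9.12, 9.02 and 9.23 in EGC, against 6.21, 6.34 and 6.50 in MEF. Both lay wholly above MEF, with differences of 3.38 ± 0.12 and 2.85 ± 0.15.

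Brakes on the cycle were lower. Of 24 measured inhibitors and p53 target genes, 0 were called higher and 18 lower, with a median of -1.23. Cdkn2b, the INK4 inhibitor p15, had 6.76 and 7.27 in ESC and 7.36, 7.77 and 7.61 in EGC, against 11.502, 11.84 and 12.04 in MEF. Ccng1, a p53 target that encodes cyclin G1, had 9.39 and 9.70 in ESC and 10.96, 11.30 and 11.42 in EGC, against 13.73, 13.81 and 14.08 in MEF. Cdkn1a, the p53-induced inhibitor p21, had 9.30 and 9.07 in ESC and 8.97, 9.29 and 9.09 in EGC, against 11.87, 11.97 and 12.07 in MEF. Line arrays were all below MEF arrays, with differences of -4.51 ± 0.15, -3.49 ± 0.17 and -2.82 ± 0.18, and Ccng1's fold of 11.2 became 6.04 under quantile scaling. The growth arrest genes Gas1 and Gas6 fell by 3.34 and 3.21, and the antiproliferative gene Tob1 by 3.25. Cdkn2d and Sesn1 were not called. Of 18 G1 cyclins and kinases, 8 were called higher (35.7% of all genes) and 5 lower (29.8%), the second count close to its share. The cyclin D genes Ccnd2 and Ccnd1 differed by -2.90 ± 0.20 and -1.63 ± 0.14 (-0.90 for Ccnd1 under quantile scaling) and the retinoblastoma gene Rb1 by -1.36 ± 0.16, whereas Mycl rose by 1.34 ± 0.12. Myc, as against Mycn, was lower, by -0.96 ± 0.14. Second probe sets of Cdkn1a, Tob1 and Ccnd1 differed by -4.06, 0.068 and -0.30.

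DNA repair genes were higher in 25 of 35 and lower in 2, with a median of 0.90. Chek1, the replication checkpoint kinase, had 9.91 and 10.09 in ESC and 10.11, 9.88 and 10.16 in EGC, against 6.25, 7.004 and 7.13 in MEF. Its difference was 3.16 ± 0.17 with no overlap, and Parp1 rose by 2.96 ± 0.10, Ung, which removes uracil from DNA, by 2.85 ± 0.15 and Xrcc5 by 2.67 ± 0.16. Xpa, of nucleotide excision repair, was lower by -1.96 ± 0.18, and Ogg1 and Ercc1 were not called. The list of apoptosis genes, 24 measured, had 3 higher and 13 lower. Fas, the death receptor, had 4.77 and 5.15 in ESC and 5.87, 5.84 and 5.67 in EGC, against 7.85, 8.46 and 8.80 in MEF, with a difference of -3.05 ± 0.13 and no overlap. Apaf1 and Casp8, of the mitochondrial and death receptor routes, differed by -1.61 ± 0.23 and -1.36 ± 0.13, while Cycs, cytochrome c, was higher by 1.05 ± 0.14. Bcl2 and Casp2 were not called. Second probe sets of Ung, Xrcc5 and Xpa differed by 0.097, 0.205 and 0.076.

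Regulators of chromatin were mainly higher. In the DNA methylation list 8 of 13 genes were called higher (35.7% of all genes) and 4 lower (29.8%), the second count close to its share. Dnmt3a, a de novo methyltransferase, had 8.91 and 8.75 in ESC and 9.30, 9.52 and 9.91 in EGC, against 4.84, 5.28 and 5.70 in MEF. Hells, a remodeller needed for methylation, had 9.15 and 9.18 in ESC and 7.65, 7.70 and 8.03 in EGC, against 4.96, 5.57 and 5.88 in MEF. Dnmt1, the maintenance enzyme, had 9.45 and 9.45 in ESC and 8.66, 8.85 and 9.14 in EGC, against 7.44, 7.57 and 7.74 in MEF. Uhrf1, the partner that recruits Dnmt1, had 10.06 and 10.16 in ESC and 12.31, 12.52 and 12.77 in EGC, against 9.90, 10.12 and 10.29 in MEF. The differences over MEF were 3.93 ± 0.14, 2.95 ± 0.34, 1.60 ± 0.14 and 1.22 ± 0.14. For Uhrf1 the ESC arrays lay within the MEF range and the EGC arrays above it. Uhrf1 was lower in ESC than in EGC by -2.42 ± 0.21 (adjusted p = 1.36e-09). A second Dnmt3a probe set differed by -0.15. Mbd2, a reader of methylated DNA, was lower by -1.39 ± 0.15. The dimmer set of Dnmt1 differed by 0.38.

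Polycomb and repressor genes were higher in 22 of 27 and lower in 3, with a median of 0.88. Ezh2, the H3K27 methyltransferase, had 10.50 and 10.55 in ESC and 10.30, 10.01 and 10.52 in EGC, against 7.59, 8.02 and 8.17 in MEF, a difference of 2.41 ± 0.18 without overlap. Its partners Mtf2 and Suz12 rose by 2.19 ± 0.20 and 1.71 ± 0.22. The core repressive complex genes Bmi1 and Phc2 went the other way, by -0.83 ± 0.16 and -0.36 ± 0.10, and Hdac2 was also called lower. Phc1, by contrast with Phc2, was the largest rise of the list, at 3.07. Among 24 remodelling and HMG genes 19 were called higher and 2 lower. Hmgb2, a DNA-bending protein, differed by 3.74 ± 0.24 and the histone chaperone gene Nasp by 3.51 ± 0.12. Hmga2, an HMG protein of mesenchyme, and Smarca2, an ATPase of the BAF complex, fell by 2.84 and 2.32. Smarca2 was higher in ESC than in EGC, by 2.47 ± 0.23 (adjusted p = 5.68e-09). The probe sets farthest from those values differed by 0.12 for Mtf2 and 0.17 for Suz12.

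Mesenchymal genes fell without a called exception. Of 34 measured mesenchyme and fibroblast genes, 0 were called higher and 32 lower, with a median of -2.85 (-2.37 under quantile scaling). Dcn, the collagen-binding proteoglycan decorin, had 7.01 and 7.07 in ESC and 8.43, 8.15 and 8.11 in EGC, against 12.21, 12.58 and 12.75 in MEF. Thy1, a fibroblast surface glycoprotein, had 8.93 and 9.08 in ESC and 8.78, 8.55 and 8.41 in EGC, against 12.94, 13.20 and 13.49 in MEF. Both lay wholly below MEF, with differences of -4.90 ± 0.20 and -4.40 ± 0.13, and Thy1's fold of 21.2 became 13.1 under quantile scaling. Vim and Mfap5 were not called. Vim, the intermediate filament vimentin that fibroblasts make in quantity, had 6.47 and 6.38 in ESC and 6.46, 6.56 and 6.55 in EGC, against 6.32, 6.42 and 6.72 in MEF, below the median of every array, and with no detection calls it is not known whether its probe set measured vimentin. A second Mfap5 probe set differed by -2.37.

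Matrix crosslinking and collagen maturation genes were called higher in 1 of 21 and lower in 18, with a median of -1.77. Timp3, an inhibitor of metalloproteinases, had 9.79 and 10.21 in ESC and 10.56, 10.71 and 10.86 in EGC, against 14.83, 14.99 and 15.12 in MEF. Mmp3, stromelysin, had 9.95 and 10.49 in ESC and 11.31, 11.11 and 11.09 in EGC, against 14.34, 14.96 and 15.34 in MEF. Neither overlapped, with -4.63 ± 0.14 for Timp3 (24.9-fold, 9.14-fold under quantile scaling) and -4.20 ± 0.13 for Mmp3 (18.4-fold, 6.94-fold). Serpinh1, the collagen chaperone, fell by 3.31, and Mmp14 by 2.99. Mmp9 was called higher by 0.34 ± 0.089.

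Genes of the contractile apparatus and caveolae were lower in 31 of 36 and higher in 2, with a median of -1.76 (-1.33 under quantile scaling). Cav1, caveolin 1, had 9.62 and 9.60 in ESC and 10.58, 10.64 and 10.80 in EGC, against 15.01, 15.18 and 15.46 in MEF. Vcl, the adhesion protein vinculin, had 10.55 and 10.67 in ESC and 10.09, 10.30 and 10.27 in EGC, against 14.21, 14.53 and 14.69 in MEF. Tagln, a smooth muscle actin-binding protein, had 10.28 and 10.13 in ESC and 11.96, 12.01 and 11.97 in EGC, against 14.99, 15.24 and 15.48 in MEF. Lmna, the lamin of stiff nuclei, had 10.81 and 10.93 in ESC and 12.30, 12.37 and 12.51 in EGC, against 15.45, 15.62 and 15.77 in MEF. All line arrays were below MEF, by 33.96-fold for Cav1 (11.7-fold under quantile scaling), 16.9-fold for Vcl (7.23-fold), 17.6-fold for Tagln (5.97-fold) and 15.96-fold for Lmna (4.67-fold). A second Vcl probe set differed by -0.35, and another of Lmna by -0.19. Csrp2, a LIM domain protein gene, went against the list at 3.21 ± 0.11. Tpm3 and Des were not called. The second Cav1 probe set differed by -0.26, so the mean over both was -2.67.

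The CArG box, which binds serum response factor, stood in 5 of 31 genes of this list with a window (16.1%), namely Cnn2, Myl9, Vcl, Fhl1 and Fhl2, against 1.62% of all genes. The TEAD letters GGAATG, the site through which YAP acts, stood in 7 of 15 YAP and SRF targets with a window (46.7%), against 14.4% of all genes. Vcl held both. Myl9, a myosin light chain gene, was added after its values were known. The windows are at chr14:20929148-20929397 and chr2:156775214-156775463, both on the plus strand, with the CArG box and, in Vcl, the TEAD letters in capitals.
Vcl: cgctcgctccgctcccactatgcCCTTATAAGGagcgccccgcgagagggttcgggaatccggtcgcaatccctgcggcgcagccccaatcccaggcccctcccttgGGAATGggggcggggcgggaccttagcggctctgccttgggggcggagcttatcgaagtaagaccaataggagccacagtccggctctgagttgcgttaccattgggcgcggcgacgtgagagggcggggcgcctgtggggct
Myl9: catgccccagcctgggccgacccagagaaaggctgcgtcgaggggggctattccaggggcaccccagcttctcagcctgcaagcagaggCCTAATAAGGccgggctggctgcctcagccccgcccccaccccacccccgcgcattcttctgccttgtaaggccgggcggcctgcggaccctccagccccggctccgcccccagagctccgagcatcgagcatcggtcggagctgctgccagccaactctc
Myl9 had 8.42 and 8.67 in ESC and 9.03, 8.92 and 8.52 in EGC, against 11.87, 12.20 and 12.52 in MEF, a difference of -3.53 ± 0.19 with no overlap.

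YAP and SRF targets were called higher in 1 of 18 and lower in 12. The median was -1.52 in ESC over MEF and -0.66 in EGC over MEF, and 8 of the 18 were called lower in ESC than in EGC (20.8% of all genes). Lats2, the kinase that restrains YAP and is itself a YAP target, had 9.62 and 9.95 in ESC and 9.68, 9.998 and 9.39 in EGC, against 13.87, 14.41 and 14.94 in MEF. Ankrd1, a classical YAP target, had 5.79 and 5.45 in ESC and 6.32, 6.53 and 6.10 in EGC, against 9.65, 10.05 and 10.44 in MEF. Ccn1 had 8.93 and 8.85 in ESC and 10.80, 10.81 and 10.72 in EGC, against 13.15, 13.47 and 13.72 in MEF and its relative Ccn2 had 9.45 and 9.56 in ESC and 10.51, 10.72 and 10.68 in EGC, against 13.33, 13.70 and 13.96 in MEF. None of the 4 overlapped with MEF. The falls were 26.4-fold for Lats2 (11.6-fold under quantile scaling), 16.6-fold for Ankrd1, 12.48-fold for Ccn1 (7.23-fold) and 12.3-fold for Ccn2 (6.82-fold). ESC were below EGC in Ccn1 by -1.89 ± 0.20 (adjusted p = 4.63e-08) and in Ccn2 by -1.13 ± 0.22 (adjusted p = 0.000239), while Lats2 was not called between the lines (0.10 ± 0.41). Birc5, which is also a mitosis gene, rose by 2.87 ± 0.10.

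Epithelial and mesenchymal adhesion genes moved apart. Of 26 epithelial junction genes 17 were called higher and 3 lower, with a median of 0.57. Cldn7, a tight junction claudin, had 6.95 and 6.87 in ESC and 7.06, 7.19 and 7.16 in EGC, against 4.07, 4.30 and 4.42 in MEF. Esrp1, an epithelial splicing factor gene, had 8.82 and 9.07 in ESC and 7.54, 7.34 and 7.68 in EGC, against 4.88, 5.01 and 5.14 in MEF. The lines were above MEF on every array, by 2.74 ± 0.18 and 3.23 ± 0.14. Jup, F11r and Krt19 were called lower, by -0.67 ± 0.082, -0.43 ± 0.12 and -0.88 ± 0.17. Of 22 EMT regulators and mesenchymal adhesion genes 4 were called higher and 16 lower, with a median of -1.57. Snai2, the EMT factor Slug, had 9.16 and 9.35 in ESC and 8.96, 8.80 and 8.99 in EGC, against 11.64, 11.73 and 12.003 in MEF. Cdh11, the mesenchymal cadherin, had 4.96 and 5.26 in ESC and 5.43, 5.54 and 5.54 in EGC, against 7.59, 7.91 and 8.81 in MEF. Both lay below MEF on every line array, by -2.67 ± 0.10 and -2.72 ± 0.16. The laminin receptor gene Itga6 went against the list at 1.30 ± 0.14.

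**Figure D3:**
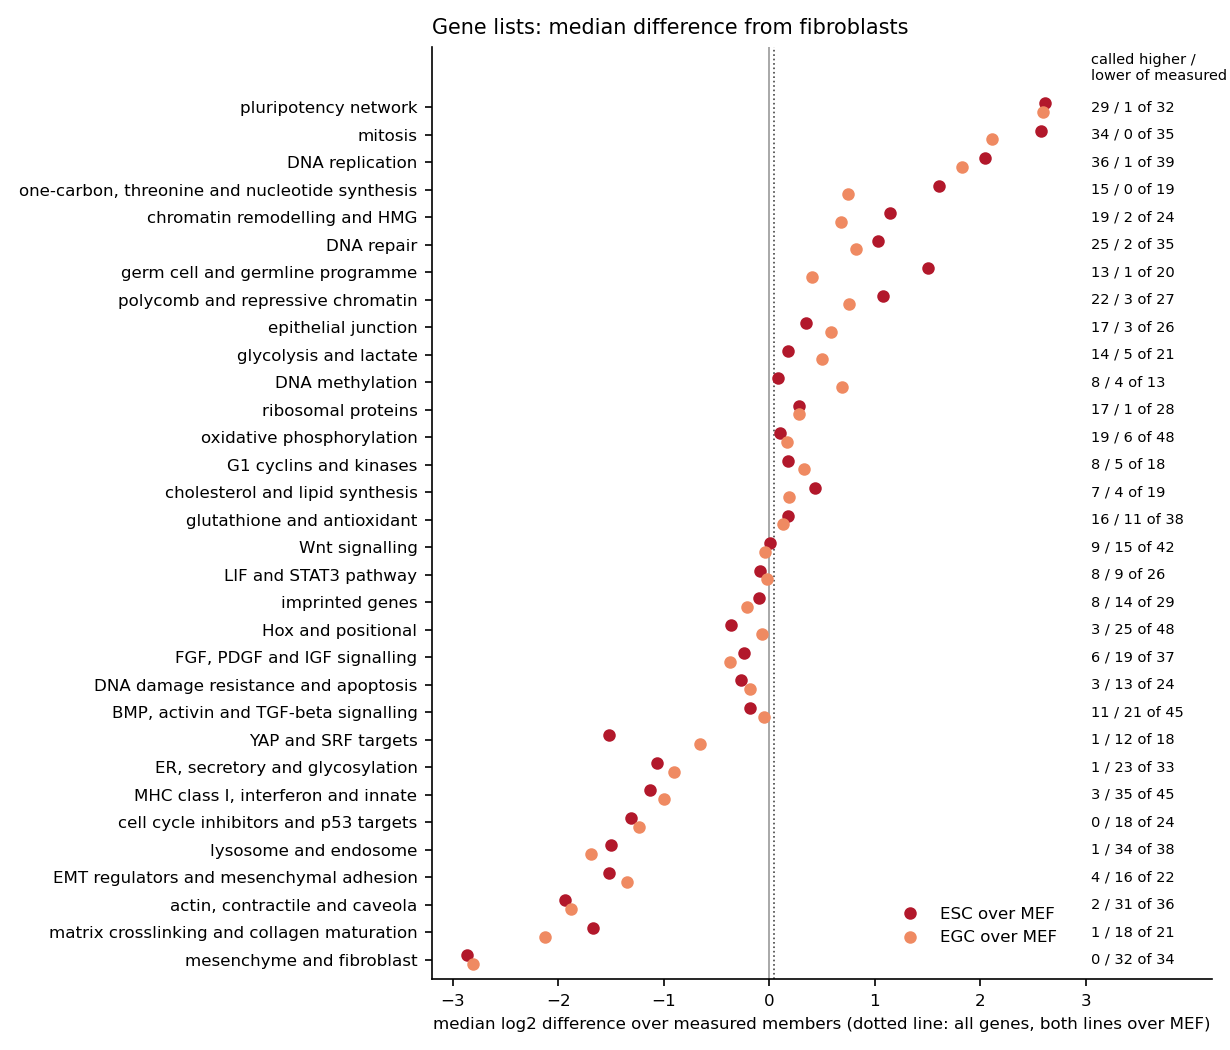
Median log2 difference (horizontal axis) of the measured members of 32 gene lists in ESC over MEF and in EGC over MEF, with the median of all genes as a dotted line. At the right stand the counts called higher and lower in the lines, and the mesenchyme list has the lowest medians while the pluripotency and mitosis lists have the highest.

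The lysosomal list was lower in 34 of 38 genes and higher in 1, with a median of -1.53 (-1.09 under quantile scaling). Lamp2, a membrane protein of lysosomes, had 9.24 and 9.46 in ESC and 8.70, 8.50 and 8.92 in EGC, against 12.75, 13.15 and 13.71 in MEF. Gabarap, of the autophagosome, had 8.23 and 8.16 in ESC and 8.01, 7.94 and 7.79 in EGC, against 10.69, 11.01 and 11.22 in MEF. Ctsc, cathepsin C, had 7.14 and 7.18 in ESC and 7.43, 7.07 and 7.37 in EGC, against 9.57, 10.10 and 10.43 in MEF. No array overlapped, with differences of -4.15 ± 0.21, -2.93 ± 0.11 and -2.79 ± 0.19, and Lamp2's fold of 17.7 became 11.1 under quantile scaling. Of 33 ER and secretory genes 1 was called higher and 23 lower, with a median of -0.98. Arf4, a small GTPase of Golgi traffic, fell by 2.43, Ssr1, of the translocon, by 1.76, and Sec22b, a vesicle SNARE, by 1.75. Sec61b was the 1 rise, a weak call at 0.40 ± 0.16. Ctsc had 3 probe sets, and its mean over them was -0.88. A second Ssr1 probe set differed by -0.38.

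MHC class I, interferon and innate genes were low in the lines. Of 45 measured 3 were called higher and 35 lower, with a median of -1.06. B2m, the light chain of MHC class I, had 10.61 and 10.93 in ESC and 12.80, 12.46 and 12.90 in EGC, against 15.99, 16.56 and 16.67 in MEF. Ccl2, a monocyte chemokine, had 8.38 and 8.45 in ESC and 8.66, 8.99 and 8.65 in EGC, against 12.81, 13.20 and 13.77 in MEF. Vcam1, an adhesion molecule for leukocytes, had 6.81 and 6.99 in ESC and 7.50, 7.67 and 7.90 in EGC, against 10.91, 11.03 and 11.47 in MEF. They fell by 26.3-fold for B2m (5.91-fold under quantile scaling), 24.9-fold for Ccl2 (15.2-fold) and 13.8-fold for Vcam1, with no overlap. B2m was lower in ESC than in EGC by -1.95 ± 0.39 (adjusted p = 0.000264). The interferon-inducible gene Ifi202b fell by 4.25. Irf1, Psme1 and Irf3 were the 3 called rises, 1.58 ± 0.086, 0.53 ± 0.15 and 0.45 ± 0.088, Psme1 weakly, and Mx2, Cxcl10 and H2-M3 were not called. Macrophage markers moved in the same direction, with 7 of 13 called lower and none higher, among them Lyz2 at -2.40 ± 0.14 and Cd53 at -1.35 ± 0.13. Their mean level was 6.39 and 6.43 in ESC and 6.32 to 6.43 in EGC, against 6.85 to 7.01 in MEF, and their part in the innate list was not tested.

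The interferon response letters, GAAA followed by any 2 bases and GAAA, stood in 10 of 35 genes of this list with a window (28.6%), against 3.46% of all genes. Those genes were B2m, Ifit1, Ifit3, Isg15, Igtp, Irgm1, Gbp2, Gbp3, Myd88 and Cxcl10. B2m and Isg15, a ubiquitin-like interferon product, are shown, the second chosen after its values were known. The windows are at chr2:122147437-122147686 on the plus strand and chr4:156200819-156201068 on the minus strand, with the matches in capitals.
B2m: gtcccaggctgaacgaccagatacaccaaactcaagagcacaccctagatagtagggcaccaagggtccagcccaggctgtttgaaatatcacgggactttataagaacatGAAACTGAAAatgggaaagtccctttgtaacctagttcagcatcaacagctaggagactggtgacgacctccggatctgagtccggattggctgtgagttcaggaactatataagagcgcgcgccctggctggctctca
Isg15: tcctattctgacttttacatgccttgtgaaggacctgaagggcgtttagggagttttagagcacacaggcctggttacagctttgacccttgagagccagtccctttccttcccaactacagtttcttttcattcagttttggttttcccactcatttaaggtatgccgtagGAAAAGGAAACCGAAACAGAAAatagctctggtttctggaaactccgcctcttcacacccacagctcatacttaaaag
The capitals of Isg15 cover 3 overlapping matches. Isg15 had 7.23 and 7.24 in ESC and 7.69, 7.67 and 7.46 in EGC, against 9.74, 10.13 and 10.78 in MEF, a difference of -2.73 ± 0.12 with no overlap. Cxcl10 also holds the letters and was not called (-0.0032 ± 0.10).

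Metabolic lists were uneven in their medians. One-carbon and nucleotide synthesis genes were called higher in 15 of 19 and lower in 0, with a median of 1.28, which was 1.61 in ESC and 0.75 in EGC alone. Under quantile scaling the median in the lines was 1.604. Gldc, the glycine decarboxylase, had 9.03 and 9.12 in ESC and 8.60, 8.23 and 8.52 in EGC, against 5.46, 5.52 and 5.75 in MEF. Gart, an enzyme of purine synthesis, had 11.29 and 11.31 in ESC and 11.86, 11.98 and 12.26 in EGC, against 8.66, 8.84 and 9.08 in MEF. Odc1, which makes putrescine, had 10.60 and 10.65 in ESC and 10.43, 10.50 and 10.65 in EGC, against 7.52, 7.86 and 8.13 in MEF. No line array overlapped with MEF, and the differences were 3.21 ± 0.13, 2.80 ± 0.11 and 2.74 ± 0.089. Glycolysis genes were called higher in 14 of 21 and lower in 5, with a median of 0.48 (0.855 under quantile scaling). In ESC alone 8 were called higher and 5 lower, with a median of 0.178. In EGC alone 16 were called higher and 3 lower, with a median of 0.501. The glucose transporter gene Slc2a3 and the kinase gene Pdk1 rose by 1.46 ± 0.12 and 1.45 ± 0.13, whereas the enolase gene Eno2 was lower by -1.70 ± 0.10.

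Of all genes 35.7% were called higher and 29.8% lower, and the counts called higher in oxidative phosphorylation and cholesterol synthesis and called lower among glutathione genes were close to these shares. Of 48 oxidative phosphorylation genes 19 were called higher and 6 lower, with a median of 0.18 (0.313 under quantile scaling). Cox7a1 was highest at 1.79 ± 0.14 and Sdhc lowest at -0.88 ± 0.10. Of 28 ribosomal protein genes measured, of 70 listed, 17 were called higher and 1 lower. Their median of 0.25 became 0.94 under quantile scaling, so their size depends on how the arrays were scaled. Rpl13a rose by 1.37 ± 0.13, and Rpl22 was lower by -0.53 ± 0.14. Glutathione and antioxidant genes were called higher in 16 of 38 and lower in 11. Gsta4, a glutathione transferase gene, and Gclm, of glutathione synthesis, rose by 3.40 ± 0.15 and 2.13 ± 0.15, and Gsto1 fell by 2.11 (1.41 under quantile scaling). Cholesterol and lipid synthesis genes were called higher in 7 of 19 and lower in 4, with Acly at 1.26 ± 0.10 and Sc5d at -1.98 ± 0.23.

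Signalling lists held genes of both directions, and the LIF counts were close to the shares of all genes called higher (35.7%) and lower (29.8%). LIF and STAT3 genes were called higher in 8 of 26 and lower in 9. The shared receptor subunit Il6st had 8.11 and 8.25 in ESC and 7.50, 7.53 and 7.66 in EGC, against 10.58, 10.73 and 11.03 in MEF. Socs2, a feedback inhibitor, had 9.93 and 9.98 in ESC and 8.18, 8.04 and 8.05 in EGC, against 6.09, 6.42 and 6.75 in MEF. Il6st lay below and Socs2 above MEF on every line array, with differences of -2.89 ± 0.12 and 2.63 ± 0.19. FGF, PDGF and IGF genes were called higher in 6 of 37 and lower in 19. The PDGF receptor genes Pdgfra and Pdgfrb differed by -2.07 ± 0.19 and -1.99 ± 0.13, and the binding protein gene Igfbp3 by -3.60 ± 0.14 (12.1-fold, 6.19-fold under quantile scaling). The autocrine ligand gene Fgf4 rose by 1.85 ± 0.12. Second probe sets of Il6st and Igfbp3 differed by -0.685 and -1.09, and the probe set of Pdgfra farthest from its value by -0.003.

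BMP, activin and TGF-beta genes were called higher in 11 of 45 (35.7% of all genes) and lower in 21 (29.8%). Nodal, Tdgf1, Gdf3 and Lefty1 were the rises described above. Inhba, the activin A subunit, had 7.68 and 8.12 in ESC and 7.57, 7.86 and 8.02 in EGC, against 12.21, 12.49 and 13.01 in MEF, a difference of -4.67 ± 0.14 with no overlap. Its antagonist Fst fell by 3.43, and the ligands Tgfb3 and Tgfb2 by 3.40 and 2.71. Wnt genes were called higher in 9 of 42 and lower in 15, the second count close to its share of all genes. The target gene Ccn4 and the secreted regulators Dkk2, Dkk3 and Sfrp1 differed by -4.37, -3.36, -2.74 and -2.12. The co-repressor gene Tle4 rose by 1.09 ± 0.11. Ctnnb1, beta-catenin, had 12.61 and 12.64 in ESC and 10.73, 10.71 and 10.93 in EGC, against 11.28, 11.76 and 12.002 in MEF, ESC above and EGC below MEF, a mean difference of 0.0028 ± 0.19 beside a difference of 1.83 ± 0.29 between the lines. Under quantile scaling the Ctnnb1 difference over MEF was 0.61. A second Tgfb3 probe set differed by -0.31.

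Positional and imprinted genes were mainly lower where they moved. Hox and positional genes were called higher in 3 of 48 and lower in 25, with a median of -0.18. Tbx15, a T-box gene of mesenchyme, had 6.07 and 6.54 in ESC and 6.22, 6.25 and 5.92 in EGC, against 8.14, 8.63 and 8.83 in MEF. Hoxa5 had 6.71 and 6.74 in ESC and 6.82, 6.83 and 6.56 in EGC, against 8.14, 8.80 and 9.002 in MEF. Their line arrays were all below MEF, by -2.37 ± 0.11 and -1.98 ± 0.14. Hoxb4 and Hoxb6 were not called. Imprinted genes were called higher in 8 of 29 (35.7% of all genes) and lower in 14 (29.8%). Igf2, a paternally expressed growth factor, had 12.01 and 12.16 in ESC and 13.10, 13.10 and 12.92 in EGC, against 15.72, 15.80 and 15.86 in MEF. Phlda2, a maternally expressed placental gene, had 8.47 and 8.23 in ESC and 8.18, 7.85 and 8.05 in EGC, against 5.48, 5.76 and 6.07 in MEF. Igf2 fell by 9.45-fold (2.39-fold under quantile scaling) and Phlda2 rose by 2.43 ± 0.14. Another Igf2 probe set differed by -0.12 and was not called, so the fall of Igf2 rests on 1 probe set and is a weak call. The paternally expressed Ndn and Mest differed by -2.66 ± 0.10 and 0.75 ± 0.16. The Tbx15 probe set farthest from its value differed by -0.43.

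Germline genes were called higher in 13 of 20 and lower in 1. The median was 1.504 in ESC and 0.41 in EGC alone, although EGC are the line derived from germ cells. In ESC over EGC 11 of the 20 were called higher and 1 lower (18.6% and 20.8% of all genes). Rhox5, an X-linked homeobox gene, had 10.69 and 10.63 in ESC and 8.13, 7.92 and 8.001 in EGC, against 4.51, 4.86 and 5.31 in MEF. Syce2, of the synaptonemal complex, had 8.01 and 8.25 in ESC and 8.36, 7.85 and 8.49 in EGC, against 4.12, 4.30 and 4.42 in MEF. Neither overlapped with MEF, with differences of 4.46 ± 0.12 and 3.88 ± 0.12. Ifitm3, a surface protein gene of early germ cells, had 10.05 and 10.09 in ESC and 10.05, 10.04 and 10.24 in EGC, against 12.32, 12.47 and 12.75 in MEF, and was the 1 member lower, by -2.42 ± 0.15.

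The lines differed from each other in 3254 genes (39.4%), 1535 higher in ESC (18.6%) and 1719 higher in EGC (20.8%), with a median over all genes of -0.037. At 2-fold or more, 455 genes were higher in ESC (5.51%) and 241 lower (2.92%). With 2 ESC arrays these counts rest on few samples, and without ESC replicate 2 the called genes numbered 2147. Of the 844 genes at least 2-fold higher in the lines than in MEF, 404 were not called between the lines, 334 were higher in ESC and 106 lower. Of the 977 genes at least 2-fold lower, 556 were not called between the lines, 135 were higher in ESC and 286 lower.

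The genes highest in ESC over EGC included germ cell genes. Kit, the receptor of stem cell factor, had 7.42 and 7.87 in ESC and 4.88, 4.72 and 4.57 in EGC, against 4.15, 4.51 and 4.84 in MEF. Ddx4, the germ cell helicase Vasa, had 6.38 and 6.45 in ESC and 3.47, 3.57 and 3.49 in EGC, against 4.55, 4.64 and 4.69 in MEF. ESC lay above EGC on every array, by 2.92 ± 0.28 for Kit (adjusted p = 1.23e-08) and 2.90 ± 0.27 for Ddx4 (adjusted p = 9.46e-09). Against MEF, Ddx4 was higher in ESC by 1.78 ± 0.25 and lower in EGC by -1.12 ± 0.21. Calml4, a calmodulin-like gene, had 7.55 and 7.71 in ESC and 5.03, 4.64 and 4.38 in EGC, against 5.76, 5.97 and 6.43 in MEF. Klf7, a Krüppel-like factor gene, had 7.21 and 7.94 in ESC and 5.01, 4.89 and 4.55 in EGC, against 5.91, 6.27 and 6.62 in MEF. ESC exceeded EGC by 2.94 ± 0.28 and 2.76 ± 0.29, and MEF lay between the lines in both. Mki67, the proliferation antigen Ki-67, was 2.78 ± 0.42 higher in ESC, and Frat2, an inhibitor of GSK3, was 2.76 ± 0.30 higher. Frat2 had 9.71 and 10.06 in ESC and 7.08, 6.86 and 7.42 in EGC, against 5.51, 5.71 and 5.97 in MEF. A second Frat2 probe set differed by 0.49 in the lines over MEF.

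The largest differences in the other direction included genes that MEF hold in quantity. Acta2, smooth muscle actin, had 10.79 and 11.04 in ESC and 14.34, 14.45 and 14.43 in EGC, against 16.51, 16.52 and 16.74 in MEF. Anxa1, a phospholipid-binding annexin, had 10.77 and 11.09 in ESC and 13.62, 13.41 and 13.67 in EGC, against 16.05, 16.15 and 16.45 in MEF. Cavin2, a caveola coat protein, had 8.21 and 8.54 in ESC and 10.33, 11.41 and 10.86 in EGC, against 14.20, 14.25 and 14.32 in MEF. ESC were below EGC on every array, by -3.49 ± 0.27, -2.64 ± 0.22 and -2.49 ± 0.20, and EGC were below MEF on every array. Their falls in the lines over MEF were 14.9-fold for Acta2 (2.74-fold under quantile scaling), 15.3-fold for Anxa1 (3.37-fold) and 24.8-fold for Cavin2 (11.8-fold). Of 11 fibroblast markers 3 (Dcn, Col1a2 and Col3a1) were called lower in ESC than in EGC and none higher, close to the 20.8% of all genes called lower. The mean level of the 11 was 7.55 and 7.63 in ESC, 7.77 to 7.93 in EGC and 10.84 to 11.04 in MEF. In the larger mesenchyme and fibroblast list, 14 of 34 genes were called lower in ESC than in EGC and 1 higher. In the contractile and caveola list 13 of 36 were called lower and 4 higher. Of all genes 20.8% were called lower and 18.6% higher. The part of fibroblast RNA in these line differences was not tested.

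Stmn2, a microtubule-destabilizing protein of neurons, had 10.37 and 10.58 in ESC and 13.22, 13.21 and 13.38 in EGC, against 12.44, 12.49 and 12.65 in MEF. Ccar1, a regulator of cell cycle and apoptosis, had 6.70 and 6.86 in ESC and 10.15, 10.42 and 10.67 in EGC, against 10.01, 10.29 and 10.49 in MEF. Alyref, an mRNA export factor gene, had 8.69 and 8.32 in ESC and 10.61, 11.92 and 11.27 in EGC, against 9.59, 9.86 and 10.11 in MEF. ESC were below EGC by -2.80 ± 0.16 for Stmn2, -3.64 ± 0.32 for Ccar1 and -2.76 ± 0.43 for Alyref, with adjusted p = 1.61e-12, 2.72e-09 and 1.63e-05. For Stmn2 and Ccar1 the direction over MEF depends on the probe set used. Of the 32 pluripotency genes 5 were called higher in ESC (18.6% of all genes) and 10 lower (20.8%), the first count close to its share. Above were Tfcp2l1, Zfp42, Sall4, Dppa3 and Tcl1, and below were Dppa2, Tdgf1, Nodal, Lefty1, Gbx2, Rex2, Nr0b1, Fgf4, Klf2 and Foxd3. Sox2, Pou5f1, Nanog and Dppa5a were not called, with differences of 0.014 ± 0.17, 0.47 ± 0.23, 0.24 ± 0.23 and 0.28 ± 0.17.

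**Figure D4:**
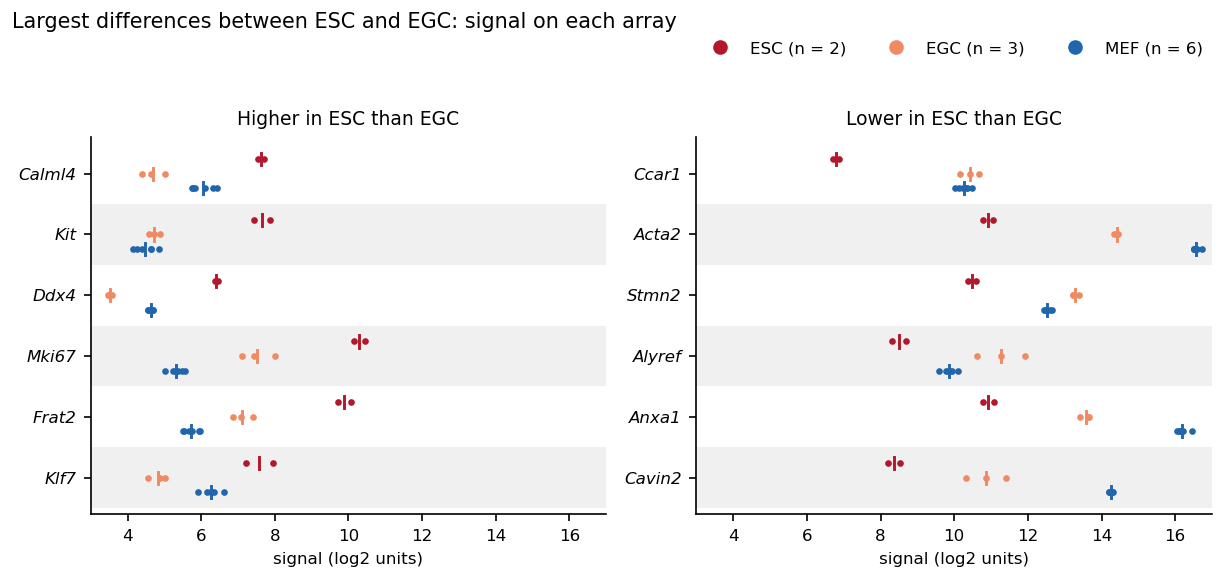
Signal in log2 units (horizontal axis) of the 6 genes most above and the 6 most below in ESC over EGC, with 1 point per ESC, EGC and MEF array. MEF lie between ESC and EGC in Calml4, Ddx4, Klf7, Stmn2 and Alyref.

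The culture difference (lines over MEF) was then set against the embryo difference (PGC E11.5 over SGM). The embryo side compares fresh germ cells with fresh somatic cells. Cell type, somatic tissue, embryonic day and sex change between the sides together with culture, and their parts cannot be told apart. The 2 differences share no array. Called genes numbered 4070 (49.3%), of which 2244 had a higher difference in culture (27.2%) and 1826 a lower one (22.1%). Called higher made up 55.1% of the calls, and 43.0% once each array was centred on its median, when 1637 were higher and 2174 lower. The median over all genes was 0.087. In PGC E11.5 over SGM alone 4141 genes were called (50.2%), 1918 higher (23.2%) and 2223 lower (26.9%). The culture difference itself chose the next genes, so their split is a description. Of the 844 genes at least 2-fold higher in the lines, it was called above the embryo difference in 555 and below it in 58. Of the 977 at least 2-fold lower it was below in 735 and above in 51.

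For the core factors no gap between the settings was called. Over SGM, Sox2 was higher in PGC E11.5 by 7.15 ± 0.13, Pou5f1 by 5.61 ± 0.18 and Nanog by 4.95 ± 0.18. The culture difference exceeded these by 0.26 ± 0.17, 0.29 ± 0.23 and 0.10 ± 0.24, with adjusted p = 0.212, 0.32 and 0.749. Sox2 had 11.62, 12.08, 11.88 and 11.65 in PGC E11.5 and 4.37, 4.79, 4.66 and 4.80 in SGM. Other members moved unlike. Dppa3 had 11.64, 11.75, 11.54 and 10.80 in PGC E11.5 and 5.71, 5.73, 5.75 and 5.64 in SGM, a difference of 5.73 ± 0.16, so that its culture difference fell short by -2.43 ± 0.21 (adjusted p = 1.55e-10). Tdgf1 and Fgf4 were separated more in culture, by 3.06 ± 0.28 and 2.14 ± 0.18. Klf4 had 7.85, 7.62, 7.33 and 7.73 in PGC E11.5 and 10.30, 11.10, 10.34 and 11.04 in SGM, so its separation in the embryo was -3.06 ± 0.24, larger than its fall in culture (the culture difference was higher by 2.04 ± 0.32). In all, 16 of the 32 were called with a higher culture difference (27.2% of all genes) and 5 with a lower one (22.1%).

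Cytokine, Hippo and matrix genes had the most negative gaps. Beside its difference of -5.87 in culture, Osmr had 7.95, 8.17, 7.91 and 8.25 in PGC E11.5 and 7.90, 8.25, 8.03 and 8.09 in SGM, which was not called (0.0019 ± 0.12). Lats2 had 14.02, 14.31, 13.93 and 12.66 in PGC E11.5 and 12.09, 13.17, 12.95 and 12.40 in SGM, a difference of 1.08 ± 0.31 in the direction opposite to culture. Lox had 8.005, 7.63, 7.78 and 7.88 in PGC E11.5 and 7.88, 7.94, 8.12 and 7.95 in SGM. The culture difference was below the embryo difference by -5.87 ± 0.16 for Osmr, -5.80 ± 0.42 for Lats2 and -5.56 ± 0.12 for Lox, with adjusted p = 8.15e-21, 4.39e-12 and 4.65e-23. Under quantile scaling the gap was -4.99 for Osmr, -4.69 for Lox and -4.96 for Ccl7. Ccl7 and Cdkn2b had gaps of -5.79 ± 0.21 and -4.88 ± 0.23. Il1rn, the interleukin 1 receptor antagonist, had 6.06 and 6.23 in ESC and 6.73, 6.46 and 6.35 in EGC, against 11.25, 11.33 and 11.70 in MEF, and 6.42, 6.36, 6.69 and 6.52 in PGC E11.5 and 6.58, 6.49, 6.58 and 6.66 in SGM, a gap of -4.98 ± 0.15. Osmr, Ccl7 and Il1rn were high in MEF and in none of the other 4 groups.

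Globin genes had the most positive gaps, and their levels were highest in SGM. Hba-a1, an adult alpha globin gene, had 8.06 and 7.98 in ESC and 9.15, 9.16 and 8.95 in EGC, against 6.78, 7.04 and 7.17 in MEF, and 8.30, 7.17, 7.11 and 9.37 in PGC E11.5 and 13.16, 13.26, 13.18 and 13.10 in SGM. The gap was 6.73 ± 0.36 for Hba-a1, 6.50 ± 0.28 for Hba-x, 6.42 ± 0.52 for Hbb-y and 6.26 ± 0.31 for Hbb-b2. Of 9 erythroid markers 8 were called lower in PGC E11.5 than in SGM, and the SGM level of Hba-a1 exceeded that of every cultured array. Gja1, connexin 43, had 12.42 and 12.32 in ESC and 12.45, 12.72 and 12.99 in EGC, against 11.28, 11.35 and 11.58 in MEF, and 6.20, 5.41, 4.94 and 6.81 in PGC E11.5 and 10.57, 10.42, 10.62 and 10.59 in SGM, a gap of 5.86 ± 0.30 that became 3.94 as the mean over its probe sets. Gja1 is among the genes with a weak call. Sox11, a progenitor transcription factor gene, had 9.59 and 9.43 in ESC and 11.02, 11.44 and 11.53 in EGC, against 8.38, 8.67 and 8.76 in MEF, and 7.95, 7.68, 7.57 and 8.004 in PGC E11.5 and 11.24, 11.66, 11.21 and 11.16 in SGM, a gap of 5.31 ± 0.21.

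Over all genes the culture difference was called above the embryo difference in 27.2% and below it in 22.1%. By list, replication and mitosis genes were separated more in culture, with 31 of 39 and 26 of 35 called above the embryo difference and 1 and 0 below. Their median gaps were 1.06 and 1.37, and the embryo medians alone were 0.95 and 1.02. In repair genes, 13 of 35 were above and 4 below. The mesenchyme list had 22 of 34 below and 2 above, cell cycle inhibitors had 14 of 24 below and 3 above, and the contractile and caveola list had 21 of 36 below and 4 above. MHC class I, interferon and innate genes had 30 of 45 below and 2 above, with a median of -1.06 in culture against -0.11 in the embryo. Germline genes had 9 of 20 below and 3 above. Their median was 0.89 in culture against 2.12 in the embryo. The embryo side holds germ cells themselves, so this list cannot tell culture apart from cell type.

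**Figure D5:**
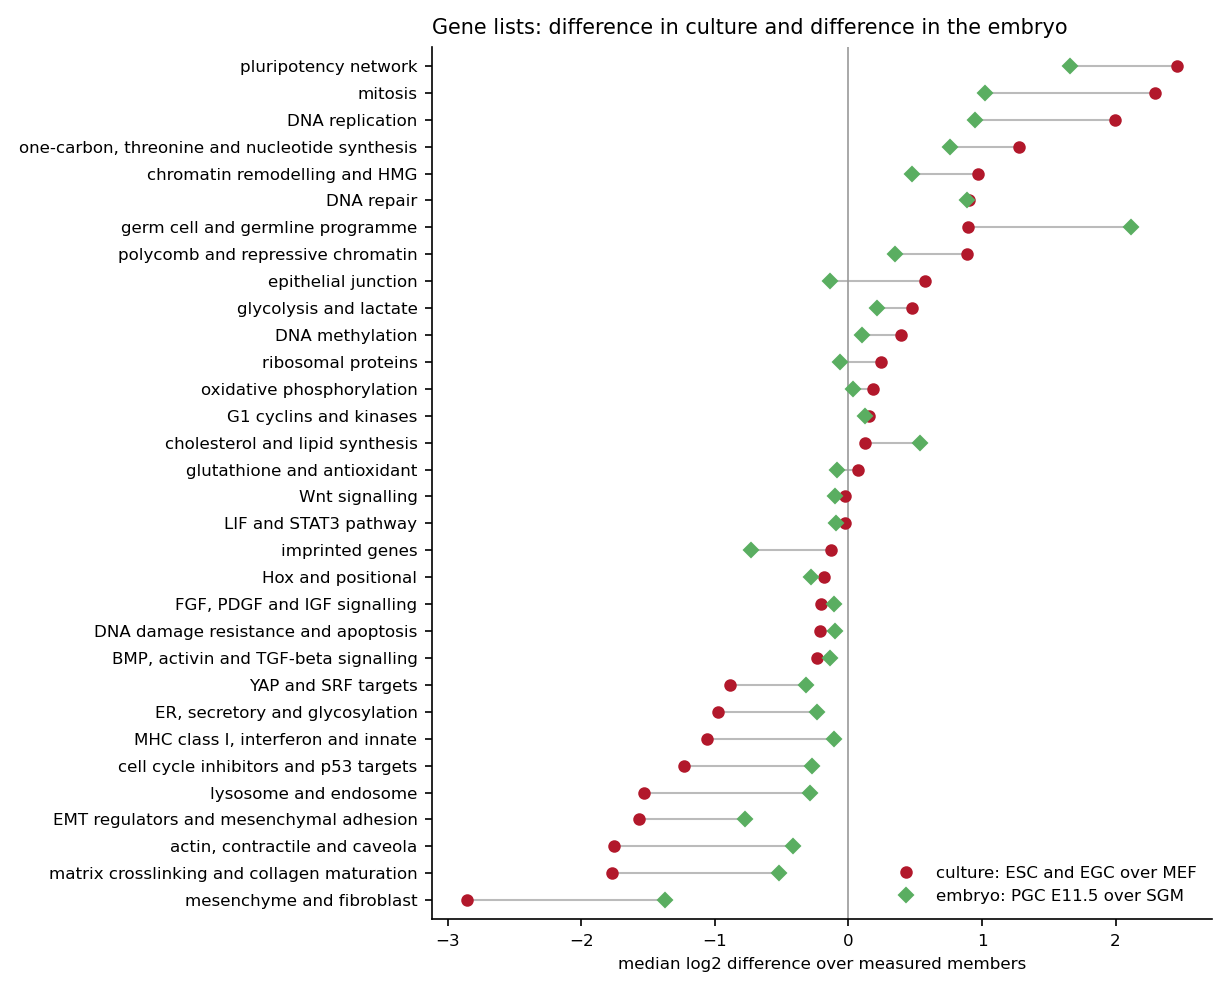
Median log2 difference (horizontal axis) of each gene list in culture (ESC and EGC over MEF, circles) and in the embryo (PGC E11.5 over SGM, diamonds). The germline diamond lies to the right of its circle, while for the mesenchyme, innate and lysosome lists the circles lie to the left.

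Marker lists of other cell types were checked on the same arrays. All 10 measured pluripotent markers were higher in the lines, and their mean level was 11.04 and 11.05 in ESC and 10.71 to 11.02 in EGC, against 6.23 to 6.49 in MEF. Of 11 fibroblast markers 10 were lower in the lines and none higher, and Mmp2 was not called. The macrophage markers, described with the innate genes, included Lyz2, lysozyme, which had 4.58 and 4.59 in ESC and 4.38, 4.01 and 4.11 in EGC, against 6.37, 6.80 and 7.14 in MEF, and Cd53 differed by -1.35 ± 0.13, while Adgre1, Csf1r, Tyrobp and Ptprc were not called. Erythroid markers were higher in 6 of 9 and lower in none, with mean levels of 7.06 and 7.13 in ESC and 7.18 to 7.37 in EGC, against 6.34 to 6.56 in MEF.

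Of all genes, 35.7% were called higher and 29.8% lower. Counts of neural and primitive endoderm markers, keratinocyte markers called lower and trophectoderm markers called higher were close to these shares. Endothelial markers were higher in 2 of 10 and lower in 5, and neural markers were higher in 6 of 14 and lower in 5. Muscle markers were higher in 7 of 15 and lower in 3, cartilage and bone markers in 4 and 3 of 8, and keratinocyte markers in 2 and 3 of 10. Alpl, alkaline phosphatase, a cartilage and bone marker that pluripotent cells also express, differed by 2.11 ± 0.087. Primitive endoderm markers, a cell type that can arise in stem cell cultures, were higher in 5 of 17 and lower in 6. Gata4 and Sox17 were not called, Gata6 differed by 0.23 ± 0.084 (a weak call), and the collagen gene Col4a1 fell by 3.28. Of 13 trophectoderm markers 5 were higher and 1 lower, the rises being Krt7 (a weak call), Krt8, Krt18, Tfap2c and Esx1, while Cdx2, Eomes and Hand1 were not called. Of 11 markers of early mesoderm and primed epiblast, Lhx1 was called higher and Kdr lower (a weak call), and Fgf5, Eomes and Mesp1 were not called. A second Krt18 probe set differed by 0.10 and one of Lyz2 by -0.38.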

How the data were processed

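RNA was amplified by 2 rounds of in vitro transcription after RNeasy purification with DNase, and hybridised to mouse expression arrays, per the labels' protocols. The authors deposited log2 values made with RMA, per the submitters' processing notes, with a version not given in the sources used here. ESC replicate 3 and PGC E11.5 replicate 5 equal the means of their other replicates within 1e-06 and were not used, so 32 arrays in 10 groups entered the fit. Of 12488 probe sets, 66 are controls, 10833 have 1 gene symbol, 396 several and 1193 none. Symbols were updated by gene ID for 10817 of them and kept for 16. The brightest probe set stood for each of 8251 genes, of which 2073 had more than 1. No gene was removed for low signal.

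The model of group means (limma 3.58.1, lmFit and eBayes, under R 4.3.3; 22 residual and 4.78 prior degrees of freedom) gave all 10 groups 1 spread, of median SD 0.161. Genes were called two-sided at a Benjamini-Hochberg adjusted p under 0.05 over 8251 genes, and the fit was tested on simulated data. Arrays carry no read depth, and their number limits the precision. The labels call the replicates biological without naming separate cultures, so p-values measure the spread between these samples, which may be technical. Correlations of like-numbered residuals among ESC, EGC and MEF ran from -0.27 to 0.128, so the numbers were not taken as pairs. Between PGC E11.5 and SGM, cells of the same organ, they were -0.353, 0.521, 0.165 and 0.332. No stated pairing links the like numbers there, and the main fit took no pairs.

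The members and the 32 pathway and 12 marker lists (1105 of 1367 entries measured) were chosen with earlier results of these data known. Named genes are the 12 largest rises and 12 largest falls of the lines over MEF called in each line without overlap. To them were added the 6 largest each way in the other comparisons, and from each list up to 6 extreme, 3 opposed and 3 uncalled members. All pluripotency and marker genes may be named. Promoters are RefSeq windows of GRCm38.p6, matched by symbol for 6576 measured genes. The alternatives were other scaling, probe set choice, filters, weights, blocks and arrays left out.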

Additional observations from a re-analysis of the deposited data

Results flagged for a closer look

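Arrays that stood far from the rest of their group were sought with Dixon's test in 268 groups of 4 or 6 arrays, of which 15 were picked out (5.6%), while chance alone picks about 1 in 20. On 1 of the 6 MEF arrays the highest value stood apart in Acta2 (16.74), Bex1 (6.64), Hoxb4 (6.08), Mcm5 (7.68), Mcm6 (6.02), Mgp (14.23), Pdgfra (11.10), Pou5f1 (4.99), Sesn1 (8.32), Snai2 (12.003) and Vcam1 (11.47). The lowest value stood apart in Col5a2 (16.43), Ezh2 (7.59) and Rfc5 (7.13). In the SGM group Sox11 stood apart at 11.66. Of the 14 values on MEF arrays, 6 were on replicate 3, 3 each on replicates 1 and 6, 2 on replicate 2 and none on replicates 4 and 5.

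The lines differed from each other by at least 4-fold in 12 of the genes named for that comparison, by the limma test of ESC over EGC. ESC were higher in Calml4 (2.94), Kit (2.92), Ddx4 (2.90), Mki67 (2.78), Frat2 (2.76) and Klf7 (2.76). They were lower in Ccar1 (-3.64), Acta2 (-3.49), Stmn2 (-2.80), Alyref (-2.76), Anxa1 (-2.64) and Cavin2 (-2.49). The culture difference differed from the embryo difference, by the limma test of their difference, in 12 named genes. It was higher in Hba-a1 (6.73), Hba-x (6.50), Hbb-y (6.42), Hbb-b2 (6.26), Gja1 (5.86) and Sox11 (5.31). It was lower in Osmr (-5.87), Lats2 (-5.80), Ccl7 (-5.79), Lox (-5.56), Il1rn (-4.98) and Cdkn2b (-4.88). Of 9 erythroid markers, which include the 4 globins, 8 were called lower in PGC E11.5 than in SGM, and the part of red cell RNA in these gaps was not tested.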

How the results depend on the processing

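Of 268 genome-wide counts under other settings 259 kept within 1.5 times their value. The other 9 came from removing genes of low signal, which left fewer genes to test. Called genes then numbered 3595 in the lines over MEF (1811 higher), 3364 in ESC over MEF (1635 higher), 3304 in EGC over MEF (1647 higher) and 2005 in ESC over EGC (994 higher, 1011 lower). With 1 array left out, called genes ran from 4998 to 5370 in the lines over MEF, 4375 to 5144 in ESC over MEF, 4458 to 5032 in EGC over MEF and 3752 to 4175 in culture over embryo. In ESC over EGC they ran from 2147 (without ESC replicate 2) to 3014, with 1094 to 1610 lower and 1053 to 1404 higher. A lone ESC array is assumed to vary like the other groups. With replicate number as a block, called genes were 5146 in the lines over MEF, 4936 in ESC over MEF, 4889 in EGC over MEF, 3188 in ESC over EGC and 4041 in culture over embryo, and the numbers share no stated pairing. Centring moved the share of calls that were higher to 43.0% in culture over embryo (55.1% uncentred) and to 48.0% in the lines over MEF (54.5%).

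Of 792 counts of list members 719 kept within 1.5 times and 73 moved. Of 244 named genes the lines over MEF difference moved by over 1.5 times in 42 as the mean over probe sets and in 34 under quantile scaling, in 0 under centring or the block. As means over probe sets Pou5f1, Nanog, Cav1 and Ctsc differed by 3.00, 3.39, -2.67 and -0.88. Directions over MEF turned for Mtm1 (-0.94), Ccar1 (0.12) and Stmn2 (0.24) with the brightest plain probe set, for Stmn2 (0.045) under quantile scaling and for Mfap5 (-1.18) as the mean over probe sets, and the cause was not tested. The calls of Mcm6, Foxd3, Sec61b, Gata6, Kdr, Krt7, Psme1, Gja1 and Igf2 were lost under at least 1 alternative. With no detection calls, differences between dim signals may lie within background.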

Other observations

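Levels in embryo groups outside the comparisons placed some of these genes. Esrrb had group means between 6.33 and 6.83 in all 10 groups of the series, and Vim between 6.24 and 6.62. Dppa3 averaged 9.33 in ESC and 8.24 in EGC, below its 11.31 in the inner cell mass of the blastocyst and 11.43 in PGC E11.5. Dppa5a was at 13.39 in ESC, 13.11 in EGC and 13.35 in the inner cell mass. Dnmt3a stood higher in ESC (8.83) and EGC (9.58) than in the inner cell mass (7.85), PGC E11.5 (6.72) and MEF (5.28). Igf2 averaged 15.80 in MEF and 15.80 in SGM. The differences between these groups were not tested.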
